A study of Mus musculus with 9 samples.

Results

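In rat penile tissue, 82 of the 18118 protein-coding genes counted set the libraries of one group apart, the group in which sacral neural crest cells had been transplanted after the major pelvic ganglia were clamped. They were chosen by their values in these same libraries. CPM, the usual scaled unit that divides the reads of a gene by all reads counted in its library, was formed on the raw library totals, and a gene was taken when its 3 Sacral NC values all lay above, or all below, the 6 Sham and Injury values. The Sacral NC mean also had to be at least 1.67 times, or at most 0.6 times, both other means, and the highest group mean had to reach 3 CPM. Of the 82 genes, 45 were higher and 37 lower after transplantation. The separation of Sacral NC from the other groups is therefore a description of how the genes were found, and no test of it is given.

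The 3 groups of 3 libraries each are defined by surgery, and all come from penile tissue collected 4 weeks after it. Sham rats had the operation without damage to the ganglia. Injury rats had the major pelvic ganglia, the paired relay of the autonomic nerves to the penis, clamped on both sides. Sacral NC rats had the same clamping followed by a transplant of sacral neural crest cells, which the series title derives from human pluripotent stem cells. The sources used here give no strain, age, cell dose or immune suppression, and name no mock transplant in the Injury group, so the cells cannot be told apart from the act of transplanting. They also do not say whether the libraries of a group are separate rats, so p-values measure the spread between these libraries. The organism field names mouse and other fields a cell line and pluripotent stem cells. The titles and tissue field name rat penile tissue, all 21124 gene identifiers are rat, and the summed CPM of 13 smooth muscle markers ran from 2810.4 to 13965, so the tables were read as rat tissue. Human reads that matched rat genes cannot be told apart from rat reads in these counts.

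Many of the higher genes belong to the interferon response. Cells that sense viral nucleic acid or other danger secrete type I interferons, which signal through their receptor and STAT proteins to switch on a large set of antiviral genes, and the same set has inhibitors that restrain the signal. Among the other higher genes are Ly49 receptors, lectin-like proteins through which rodent natural killer cells read MHC class I molecules on other cells. Many of the lower genes build the mitotic spindle and the kinetochore and are made mainly in dividing cells.

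Total counts ran from 15442190 to 18283418 per library. Collagen genes took 15.1% to 18.6% of all counts in the Injury libraries and 2.15% to 5.20% in the other 6, so raw CPM of all other genes is pulled down in Injury. The share of counts in skeletal muscle genes was 3.20% for Injury 2, 1.11% for Sham 1, 0.286% for Sacral NC 2 and 0.248% for Injury 1, and under 0.1% for the other 5. Smooth muscle markers summed to 13965 CPM in Sacral NC 2, the highest of the 9 libraries, and to 2810.4 and 4453 in Sacral NC 1 and 3. The part that tissue content or scaling has in the values below was not tested. In bulk tissue, fewer cells of a type and less RNA per cell cannot be told apart.

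The same rule with another group set apart found 50 genes for Sham, 47 of them higher and 3 lower, and 835 for Injury, 249 higher and 586 lower. These counts are on raw CPM, which the collagen reads lower in Injury, and the number for Sacral NC rose to 667 without Sacral NC 2. Before the fold and the floor were applied, the Sacral NC values lay wholly above or below the other 6 in 666 protein-coding genes. The ratio of the Sacral NC mean to the nearer group mean had a median of 2.25 over the higher genes and 0.547 over the lower genes. Just inside the upper limit were Oas1i at 1.68, RGD1359290 at 1.68 and Tmem150b at 1.70, and just outside it Clec1a at 1.67, Ube2l6 at 1.65 and Ier2 at 1.65. On the lower side Ccnb1, Birc5 and Mcm10 were just inside, at 0.5970, 0.5995 and 0.5997, and Arfgef3, Hjurp and Gas2 just outside, at 0.603, 0.615 and 0.617.

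The 3 Sacral NC libraries did not contribute alike. Among the 45 higher genes, Sacral NC 3 held the highest of the 3 values in 34, and Sacral NC 2 the lowest in 29. Among the 37 lower genes, Sacral NC 1 held the lowest value in 24. Leaving out a Sacral NC library changed the set: without Sacral NC 3 the rule kept 59 of the 82 genes, without Sacral NC 1 it kept 63, and without Sacral NC 2 it kept 79 but admitted 667 genes in all, 360 higher and 307 lower. With TMM-scaled CPM, which allows for the collagen reads in Injury, the rule found 50 higher and 32 lower genes and kept 63 of the 82. With collagen reads left out of the totals it found 41 higher and 51 lower genes.

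**Figure D1:**
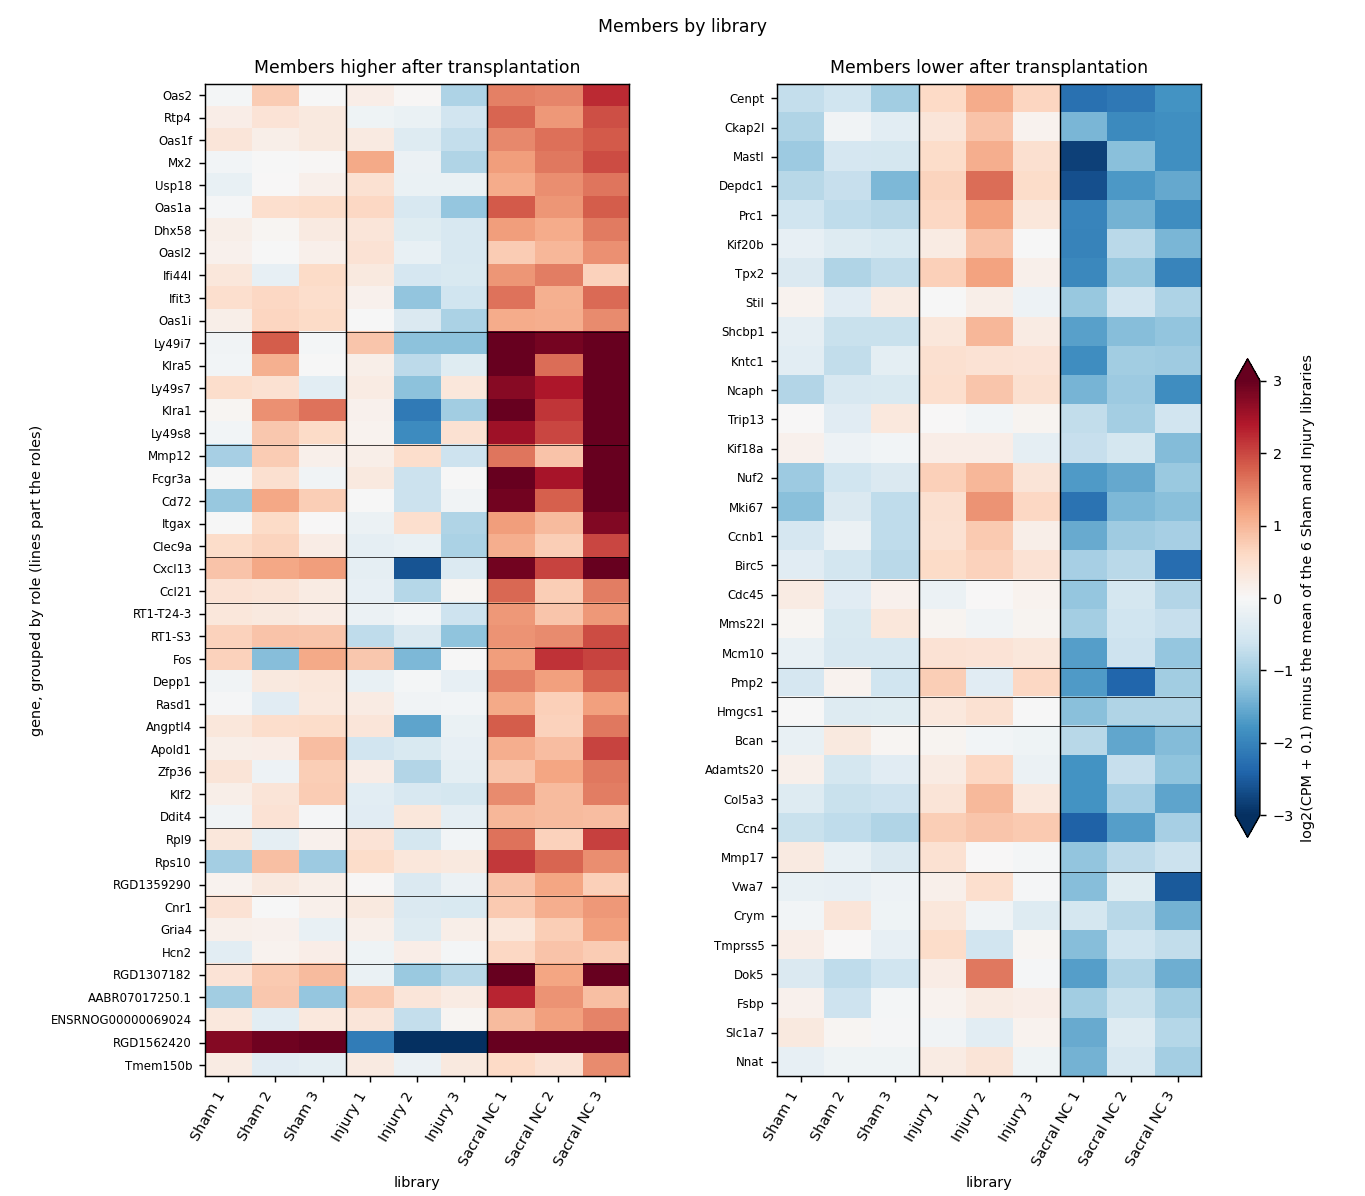
The genes reported here (rows, grouped by role) in each of the 9 libraries (columns), as log2(CPM + 0.1) minus the mean over the 6 Sham and Injury libraries, with higher genes on the left and lower genes on the right. Red is above that mean and blue below it. RGD1562420, near 0 in Injury, stands out among the higher genes, and most of the mitosis genes at the top right are red in Injury.

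Interferon-induced genes made up 11 of the 45 higher genes. They were Oas1a, Oas1f, Oas1i, Oas2, Oasl2, Mx2, Ifit3, Ifi44l, Rtp4, Dhx58 and Usp18, with Sacral NC means 1.68 to 2.94 times the nearer group mean. Their 3 Sacral NC values stayed close together, with the highest 1.25 to 1.81 times the lowest and none over 2-fold.

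Usp18 (chromosome 4, 154471592 to 154499144, as the deposited tables place it) is a protease that removes the ubiquitin-like protein ISG15 and blocks signalling at the type I interferon receptor. Its level was 7.39, 8.81 and 9.59 CPM in Sham, 11.9, 7.55 and 7.60 in Injury and 18.9, 22.9 and 26.7 in Sacral NC. The Sacral NC mean was 22.8 ± 3.87 CPM (SD, n = 3), 2.53 times the larger of the other means, and the Sham and Injury libraries overlapped. Rtp4, an interferon-induced chaperone of membrane receptors, was counted at 12.2, 14.3 and 13.0 CPM in Sham, 9.67, 9.199 and 7.16 in Injury and 35.9, 26.5 and 41.1 in Sacral NC. For Rtp4 (chromosome 11, 77238216 to 77335437) the Injury values all lay below the Sham values, and the Sacral NC mean was 2.62 times that of Sham. Rtp4 overlaps Masp1 on the other strand, so some of its reads may belong to that gene.

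The oligoadenylate synthetases make a short nucleotide chain that activates an RNA-cutting enzyme against viral RNA. Oas1a, one of them, showed 5.29, 7.67 and 7.92 CPM in Sham, 8.41, 3.83 and 2.35 in Injury and 19.7, 13.7 and 19.2 in Sacral NC. Oas1f showed 8.14, 7.13 and 7.79 CPM in Sham, 7.60, 4.84 and 3.77 in Injury and 17.3, 20.2 and 22.8 in Sacral NC. In Oas1a and Oas1f the gap between groups was wide, with the lowest Sacral NC value 1.63 and 2.12 times the highest value elsewhere. Oas2, at low counts, had 1.86, 3.36 and 1.92 CPM in Sham, 2.26, 2.00 and 0.984 in Injury and 5.75, 5.57 and 9.62 in Sacral NC. Oas1i, just inside the fold limit, had 4.94, 6.83 and 6.496 CPM in Sham, 4.33, 3.18 and 2.19 in Injury and 9.52, 9.39 and 11.8 in Sacral NC. Oasl2, a synthetase-like protein that strengthens or damps sensing of nucleic acid in the mouse, had 14.7, 13.3 and 15.0 CPM in Sham, 18.02, 11.4 and 9.52 in Injury and 22.6, 26.8 and 34.5 in Sacral NC. In all of these the Sacral NC libraries were highest, and in Oas1i the Injury libraries were the lowest of the 9.

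Mx2, a dynamin-like antiviral GTPase, had 14.6, 15.5 and 16.1 CPM in Sham, 34.1, 13.8 and 8.31 in Injury and 37.6, 46.9 and 60.5 in Sacral NC. Injury 1 stood far above the other Injury libraries and close to Sacral NC 1, so the separation of Mx2 was narrow. Ifit3, which binds antiviral signalling proteins, had 14.7, 16.0 and 15.0 CPM in Sham, 11.2, 4.48 and 6.78 in Injury and 32.0, 21.6 and 34.0 in Sacral NC. Ifi44l, an interferon-induced protein that restrains the response in human cells, had 10.7, 7.13 and 12.6 CPM in Sham, 10.3, 5.90 and 6.07 in Injury and 21.2, 24.5 and 13.6 in Sacral NC. In Ifi44l alone of the 11, Sacral NC 3 was the lowest of its group. Dhx58, the RNA sensor LGP2 that tunes the other RIG-I-like receptors, had 5.70, 5.27 and 6.12 CPM in Sham, 6.59, 3.89 and 3.61 in Injury and 12.3, 11.1 and 15.0 in Sacral NC.

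**Figure D2:**
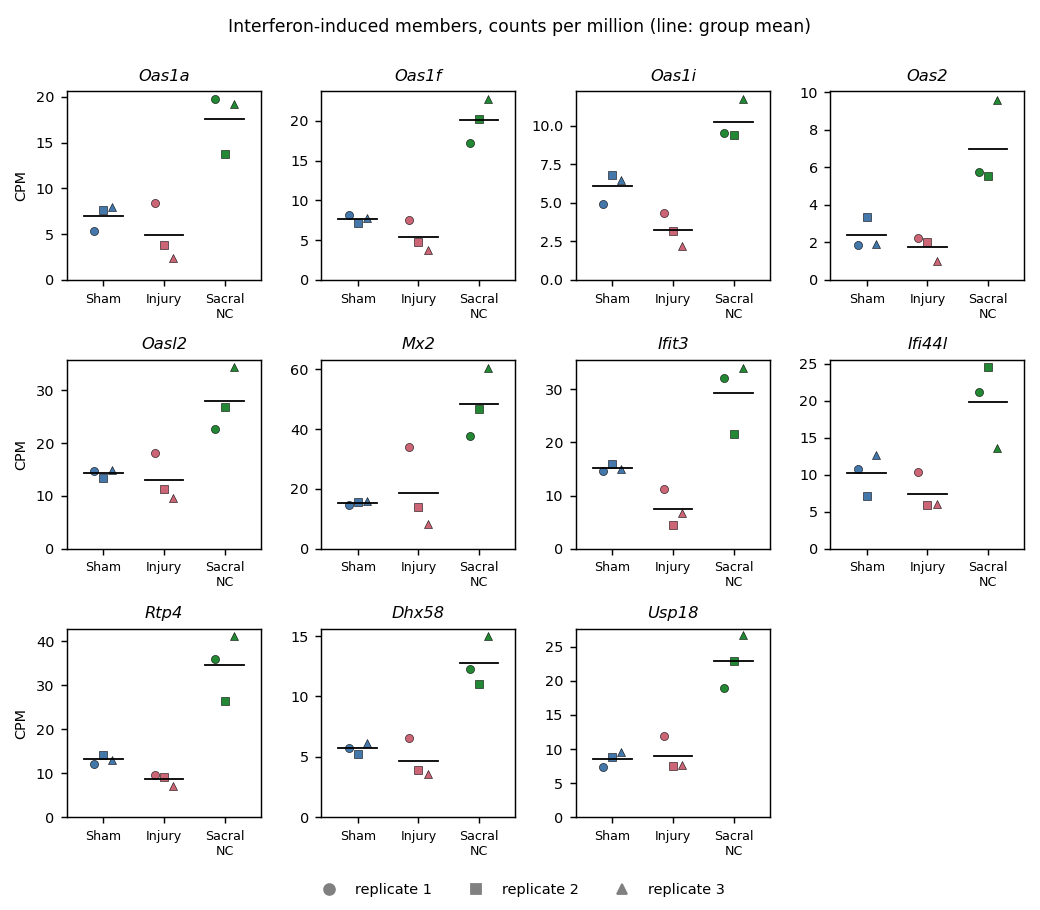
CPM of the 11 interferon-induced genes in Sham, Injury and Sacral NC, 1 panel per gene with its own linear axis from 0; symbols are libraries (circle, square and triangle for replicates 1, 2 and 3) and lines are group means. The Sacral NC points lie above all others in every panel, by a narrow margin in Mx2 and Ifi44l, where the lowest Sacral NC value was 1.10 and 1.08 times the highest value elsewhere.

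The rest of the interferon pathway was read from lists of effectors, sensors, and ligands, receptors and transcription factors, 97 genes in the tables, of which 9 are among the 82. The lists were written with earlier results of these data known. A further 82 genes of these lists, none of them chosen by the rule, were tested, and edgeR's quasi-likelihood test with Benjamini-Hochberg adjustment called 30 of them higher in Sacral NC than in Injury and 0 lower. Over all 15509 genes tested in that comparison, 3.26% were called higher. The median log2 change of these other genes was 0.63, beside 0.027 over all genes tested. Against Sham, 0 of them were called by edgeR, with 66 of 82 above 0 and a median log2 change of 0.28, beside 0.0031 over all genes. Of these, 23 had an unadjusted p under 0.05, beside 1232 of 15509 genes, and DESeq2 called 3 higher against Sham, beside 41 of 21094. In Injury against Sham, 71 of these other genes were below 0 and 11 above, with a median of -0.39, beside -0.039 over all genes. There edgeR called 3 of them lower and 0 higher, beside 1.34% of all genes called lower. For the full lists, 91 genes tested, 38 were called higher against Injury. That count was 58 without Sacral NC 2, 1 of these lower, 8 without Injury 3, 11 without Sacral NC 1, 15 without Injury 2, 20 without Sham 3, 21 without Sacral NC 3 and 22 without Injury 1. Over all genes, those called higher moved from 506 to 2033 without Sacral NC 2, 98 without Injury 3 and 105 without Sacral NC 1. They were 161 without Injury 2, 191 without Sham 3, 183 without Sacral NC 3 and 150 without Injury 1.

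Irf7, the transcription factor that amplifies the type I response, was counted at 20.9, 50.0 and 30.2 CPM in Sham, 22.7, 18.8 and 12.9 in Injury and 108, 45.2 and 91.5 in Sacral NC. Its log2 change from Injury to Sacral NC was 2.01 ± 0.42 (SE; edgeR, adjusted p = 0.0295). Ifi44, a relative of Ifi44l, had 36.9, 46.4 and 39.7 CPM in Sham, 26.6, 25.0 and 19.6 in Injury and 64.0, 61.8 and 71.1 in Sacral NC, with a log2 change of 1.29 ± 0.14 (SE; edgeR, adjusted p = 0.00534). Both were higher in every Sacral NC library than in every Injury library, but Irf7 in Sacral NC 2 lay within the Sham range. Ifih1, the RNA sensor MDA5, had a log2 change of 0.88 ± 0.15 (SE; edgeR, adjusted p = 0.0143). Mx1, the closest relative of Mx2, had 6.57, 13.3 and 9.16 CPM in Sham, 31.5, 9.199 and 5.41 in Injury and 20.6, 13.6 and 32.2 in Sacral NC, so Injury 1 was as high as Sacral NC 3.

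The interferons themselves were hardly counted. Ifng had at most 3 reads in any library, and Ifna1 and Ifnk at most 2. Of the 6 most abundant genes of the lists outside the 82, Slfn5 and Ifi27 were called higher in Sacral NC than in Injury, with log2 changes of 1.06 ± 0.22 (SE; edgeR, adjusted p = 0.03) and 0.98 ± 0.19 (SE; edgeR, adjusted p = 0.0232). Jak1, Stat3, Ifngr1 and Ifnar1, the kinase, transcription factor and receptor chains of the pathway, had log2 changes of 0.27 ± 0.13, 0.24 ± 0.09, 0.58 ± 0.22 and 0.04 ± 0.14 in the same comparison and were not called. Summed over the 21 ligand, receptor and transcription factor genes, Sacral NC libraries held 1245 to 1529.6 CPM, Sham 1325 to 1533 and Injury 919 to 1055, so Sacral NC and Sham overlapped.

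A block of 5 Ly49 receptor genes, Klra1, Ly49s8, Ly49s7, Klra5 and Ly49i7, lay above all other libraries after transplantation. They are the 5 protein-coding genes that the deposited tables place between 164606629 and 164867333 on chromosome 4. Their Sacral NC means were 6.41 to 20.6 times the nearer group mean. All 5 were highest in Sacral NC 3 and lowest in Sacral NC 2.

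Klra5 had 0.349, 0.899 and 0.371 CPM in Sham, 0.440, 0.177 and 0.273 in Injury and 5.99, 1.42 and 17.2 in Sacral NC. Ly49i7 had 0.116, 0.719 and 0.124 CPM in Sham, 0.314, 0 and 0 in Injury and 6.23, 1.62 and 11.95 in Sacral NC, where 0 in Injury 2 and Injury 3 means 0 reads. Klra1 had 0.349, 1.02 and 1.24 CPM in Sham, 0.377, 0 and 0.109 in Injury and 7.31, 1.81 and 11.95 in Sacral NC. The levels outside Sacral NC were thus a handful of reads per library, and Sacral NC 2 lay within 2-fold of the highest Sham value for Klra1 and Klra5. Ly49s7 had 0.640, 0.599 and 0.309 CPM in Sham, 0.502, 0.118 and 0.547 in Injury and 3.29, 2.66 and 7.67 in Sacral NC, and Ly49s8 had 0.873, 1.68 and 1.42 CPM in Sham, 1.00, 0.177 and 1.31 in Injury and 5.87, 4.01 and 15.6 in Sacral NC. In both, Sacral NC 2 lay more than 2-fold above the highest Sham value. The Ly49 genes are closely related copies, so how reads were split among them is uncertain.

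Other genes of natural killer cells were counted at low levels. Of 15 other natural killer and cytotoxic genes, 14 stayed under 2 CPM in every library, and the highest value among them was 1.45 CPM. Ncr1, an activating receptor that defines these cells, reached at most 0.692 CPM, and Prf1, perforin, at most 1.13 CPM. The exception was Klrk1, the receptor NKG2D, which reached 9.44 CPM. Summed without the Ly49 genes, the list held 5.57 to 10.7 CPM in Sham, 1.97 to 3.24 in Injury, and 8.63, 1.94 and 18.7 in Sacral NC 1, 2 and 3, the same order of the 3 transplanted libraries as in the Ly49 genes.

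Myeloid, dendritic and lymphoid genes gave 6 more of the higher genes, with the same order of libraries. Fcgr3a, a low-affinity receptor for the constant part of antibodies on macrophages and natural killer cells, had 2.27, 3.24 and 2.103 CPM in Sham, 2.83, 1.42 and 2.24 in Injury and 52.0, 13.1 and 69.3 in Sacral NC. Even its lowest Sacral NC value was 4.04 times the highest value elsewhere. Mmp12, the macrophage elastase, had 0.698, 2.58 and 1.67 CPM in Sham, 1.70, 2.18 and 0.9298 in Injury and 4.73, 2.78 and 82.3 in Sacral NC. The Mmp12 mean rests on Sacral NC 3, and without it the ratio to the nearer group fell from 18.2 to 2.28.

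Cd72, a receptor of B cells and some myeloid cells, had 0.349, 2.097 and 1.55 CPM in Sham, 0.879, 0.531 and 0.820 in Injury and 7.25, 3.30 and 14.7 in Sacral NC. Itgax, the integrin CD11c of dendritic cells and macrophages, had 2.62, 4.01 and 2.66 CPM in Sham, 2.32, 3.77 and 1.37 in Injury and 6.47, 5.18 and 18.6 in Sacral NC. Clec9a, a receptor for dead cells on cross-presenting dendritic cells, had 6.86, 7.49 and 5.51 CPM in Sham, 3.83, 4.01 and 2.35 in Injury and 10.0, 7.90 and 18.9 in Sacral NC. In Itgax and Clec9a, Sacral NC 2 lay close to the Sham range and Sacral NC 3 far above it. Without Sacral NC 3 the ratio to the nearer group was 1.88 for Itgax and 1.35 for Clec9a. Across the 6 genes the highest Sacral NC value was 2.40 to 29.6 times the lowest, wider than in any of the 11 interferon-induced genes.

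**Figure D3:**
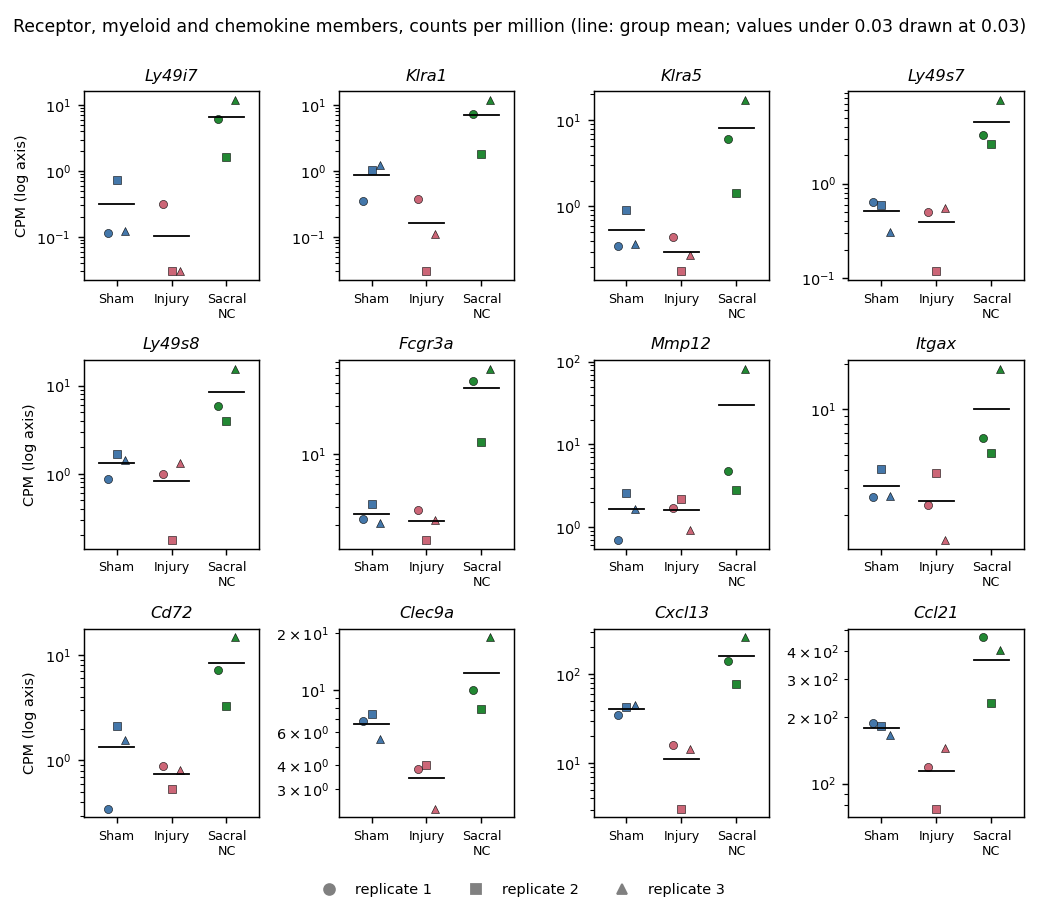
CPM of 12 receptor, myeloid and chemokine genes on log axes, 1 panel per gene; symbols are libraries (circle, square and triangle for replicates 1, 2 and 3), lines are group means, and 0 is drawn at 0.03. Sacral NC 2 (square) is the lowest Sacral NC point in all 12 panels, and Sacral NC 3 (triangle) the highest in all but Ccl21.

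Macrophage markers moved with these genes. The other 22 macrophage and monocyte markers summed to 1073 to 1682 CPM in Sham, 495 to 655 in Injury, and 2007, 573 and 3841 in Sacral NC 1, 2 and 3. Sacral NC 2 thus held macrophage markers at the Injury level, while its Fcgr3a remained above all Sham and Injury libraries. All 23 markers of the list had a log2 change above 0 from Injury to Sacral NC with a median of 1.84, but edgeR called only Fcgr3a among them. Of the other 22, 16 had an unadjusted p under 0.05, 14 were called by DESeq2, 19 by edgeR without Sacral NC 2, and 1 without Injury 3. Over all genes, 4133 of 15509 had an unadjusted p under 0.05, and DESeq2 called 1201 of 21094 higher. Without Sacral NC 2 edgeR called 2033 of 15784 higher, and without Injury 3 it called 98 of 15751 higher. Sacral NC 3 also held 782 CPM of red cell markers, against 20.6 to 129.7 in the other libraries. T cell markers summed to 10.7 to 11.9 CPM in Injury and to 12.04 to 33.7 in the other 6 libraries, with Sham and Sacral NC overlapping. Neutrophil markers, at low levels, summed to 17.0 to 41.8 CPM in Sham, 3.07 to 4.33 in Injury and 5.31 to 16.0 in Sacral NC, below Sham. Of 6 neutrophil markers tested, 5 were below 0 against Sham and 6 above 0 against Injury, and edgeR called 0 in either comparison. The part of cell content in the immune genes was not tested.

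The 2 chemokines were highest in the transplanted tissue and lowest after injury alone. Cxcl13, which draws B cells and follicular helper T cells, had 34.4, 42.2 and 45.2 CPM in Sham, 15.8, 3.07 and 14.3 in Injury and 142, 77.1 and 260.0 in Sacral NC. Its means were 40.6 ± 5.58 CPM in Sham, 11.1 ± 6.96 CPM in Injury and 159.6 ± 92.7 CPM in Sacral NC (SD, n = 3). Ccl21, which guides dendritic cells and naive T cells to lymphatic vessels, had 188, 183 and 166 CPM in Sham, 119, 76.8 and 145 in Injury and 463, 232 and 406 in Sacral NC. In Cxcl13 all Injury values lay below all Sham values, as they did in Ccl21.

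MHC class I molecules, the ligands of Ly49 receptors, were represented by RT1-S3 and RT1-T24-3 on chromosome 20. RT1-S3 had 139, 154 and 151 CPM in Sham, 50.3, 63.5 and 37.0 in Injury and 219, 229 and 332 in Sacral NC. The 3 groups did not overlap, with Injury lowest. RT1-T24-3 had 39.2, 38.2 and 36.6 CPM in Sham, 27.7, 29.6 and 20.3 in Injury and 77.3, 55.2 and 76.5 in Sacral NC, again with no overlap between the 3 groups. The rat RT1 genes are closely related copies and RT1-S3 overlaps RT1-CE3 on the same strand, so the split of reads is uncertain. Of 13 other genes of class I processing tested, 5 were called higher in Sacral NC than in Injury by edgeR, beside 3.26% of all genes tested, and all 13 were above 0, with 9 called without Sacral NC 2. That count was 1 without Injury 3, 2 without Injury 2, Sacral NC 1 or Sacral NC 3, and 3 without Injury 1, and 0 when the 4 libraries rich in skeletal muscle reads were left out. Against Sham 0 were called by edgeR or DESeq2, 9 were above 0 and 2 had an unadjusted p under 0.05, beside 1232 of 15509 genes. In Injury against Sham all 13 were below 0, with a median log2 change of -0.63, beside -0.039 over all genes. There edgeR called 2 of the 13 lower, beside 1.34% of all genes.

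Early response and stress genes numbered 8: Fos, Zfp36, Klf2, Apold1, Rasd1, Ddit4, Depp1 and Angptl4. Fos, part of the AP-1 transcription factor and switched on within minutes of a stimulus, had 83.5, 21.2 and 114 CPM in Sham, 91.2, 20.4 and 51.9 in Injury and 124, 235 and 210.0 in Sacral NC. Sacral NC 1 was only 1.09 times the highest Sham value, and both Sham and Injury spread widely. Zfp36, which destabilises inflammatory messenger RNAs, had 114, 77.9 and 145 CPM in Sham, 102, 47.2 and 70.9 in Injury and 156, 198 and 261 in Sacral NC. Klf2, a transcription factor induced by blood flow in endothelium, had 54.3, 63.0 and 81.5 CPM in Sham, 38.5, 34.6 and 33.5 in Injury and 129, 92.7 and 139 in Sacral NC, with Injury below Sham in every library.

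Ddit4, an inhibitor of the growth kinase mTOR induced by low oxygen and by glucocorticoids, had 77.6, 113 and 81.3 CPM in Sham, 65.4, 105 and 68.6 in Injury and 166, 161 and 159.5 in Sacral NC. Its Sacral NC values were the tightest of the higher genes, within 1.04-fold. Depp1, a target of FOXO transcription factors, had 11.5, 15.3 and 15.7 CPM in Sham, 10.55, 11.97 and 10.501 in Injury and 35.3, 29.4 and 42.9 in Sacral NC. Angptl4, an inhibitor of lipoprotein lipase, had 18.4, 21.0 and 21.3 CPM in Sham, 18.8, 4.84 and 12.7 in Injury and 52.1, 23.7 and 43.8 in Sacral NC. Apold1, an endothelial stress gene, had a Sacral NC mean of 51.4 ± 22.9 CPM (SD, n = 3), but Sacral NC 2 exceeded the highest Sham library by only 1.01-fold. Rasd1, a small G protein induced by dexamethasone, had 6.57, 5.27 and 8.35 CPM in Sham, 7.98, 6.25 and 6.40 in Injury and 14.8, 11.1 and 16.0 in Sacral NC.

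These genes can respond to how quickly tissue is handled, and the labels give no collection times. Over a list of 18 immediate early genes, edgeR called 3 higher in Sacral NC than in Injury, Maff, Klf4 and Zfp36, of which the rule had chosen Zfp36, and 0 against Sham, where DESeq2 also called 0 and 7 had an unadjusted p under 0.05. Outside the 82 the count was 2 of 16, beside 3.26% of all genes tested. The 3 became 0 without any 1 Injury library or without Sacral NC 3, 1 without Sacral NC 1 and 5 without Sacral NC 2. Of the 16 outside the 82, 13 were above 0 against Injury, with a median log2 change of 0.97, beside 0.027 over all genes. Against Sham 14 of the 16 were above 0, with a median of 0.35, beside 0.0031. Of 18 circadian clock genes, 0 were called in either comparison by edgeR or DESeq2, with 2 and 1 at an unadjusted p under 0.05. Against Injury 10 of the 18 were below 0, with a median log2 change of -0.15, beside 0.027 over all genes. Against Sham 16 were below 0, with a median of -0.12, beside 0.0031. Without Sacral NC 2 the numbers called were 2 and 1, and without Injury 2 they were 1 and 0. Of 11 glucocorticoid-induced genes outside the 82, edgeR called 5 higher in Sacral NC than in Injury, beside 3.26% of all genes. Their median log2 change was 0.95 against Injury and 0.05 against Sham, where 0 were called. In Injury against Sham 3 of the 11 were called lower, beside 1.34% of all genes, with a median of -0.47.

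The other higher genes have mixed roles. Gria4, a glutamate receptor subunit, had 15.9, 15.6 and 12.1 CPM in Sham, 15.7, 10.8 and 16.0 in Injury and 17.9, 23.6 and 33.6 in Sacral NC. Cnr1, the cannabinoid receptor of nerve endings, had 8.14, 5.99 and 6.74 CPM in Sham, 7.41, 4.42 and 4.38 in Injury and 10.4, 12.8 and 15.0 in Sacral NC. Hcn2, a pacemaker ion channel, had 1.57, 2.16 and 2.29 CPM in Sham, 1.82, 2.30 and 1.91 in Injury and 3.11, 3.69 and 3.46 in Sacral NC. All were within 2-fold of the nearer group, and in Gria4 and Cnr1 Sacral NC 3 was the highest library.

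Under ribosomal protein names stood Rpl9, Rps10 and RGD1359290, which may be copies of genes with many near-identical relatives. Rps10 had 11.8, 45.2 and 11.3 CPM in Sham, 35.4, 30.7 and 29.4 in Injury and 106, 80.3 and 63.8 in Sacral NC, so Sham 2 lay above all Injury libraries and the other Sham libraries below them. The uncharacterised AABR07017250.1 had 2.04, 7.55 and 1.86 CPM in Sham, 7.41, 5.48 and 5.09 in Injury and 21.3, 11.1 and 8.05 in Sacral NC, with the same high value in Sham 2. Rpl9 had 1.80, 1.14 and 1.55 CPM in Sham, 1.88, 0.943 and 1.31 in Injury and 4.55, 2.33 and 6.10 in Sacral NC, and RGD1359290 had 169.6, 195 and 179 CPM in Sham, 163, 118 and 140.5 in Injury and 289, 364 and 262 in Sacral NC.

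RGD1562420, uncharacterised in the tables used here, was nearly uncounted in Injury, while its Sacral NC mean was 2.097 times that of Sham. It had 6.46, 7.19 and 7.67 CPM in Sham, 0.126, 0 and 0 in Injury and 14.1, 8.42 and 22.1 in Sacral NC. In reads, Injury held 2 in all, Sham 355 and Sacral NC 718. The Sham to Injury ratio was 181 with a 95% counting interval from 49.9 to 1504. RGD1307182 had 0.524, 0.719 and 0.804 CPM in Sham, 0.314, 0.118 and 0.164 in Injury and 3.77, 0.971 and 14.5 in Sacral NC, in the same order of Sacral NC libraries as the Ly49 genes, and Tmem150b and ENSRNOG00000069024 complete the 45.

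Mitosis genes made up 17 of the 37 lower genes: Cenpt, Ckap2l, Mastl, Depdc1, Prc1, Kif20b, Tpx2, Stil, Shcbp1, Kntc1, Ncaph, Trip13, Kif18a, Nuf2, Mki67, Ccnb1 and Birc5. Their Sacral NC means were 0.356 to 0.599 times the nearer group mean. In 15 of the 17 the nearer group was Sham, since the Injury mean exceeded it.

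Cenpt, which ties the centromere to the kinetochore, had 1.05, 1.14 and 0.804 CPM in Sham, 2.76, 3.95 and 2.84 in Injury and 0.2995, 0.324 and 0.440 in Sacral NC. Injury was highest in every library and Sacral NC lowest, and the 3 groups did not overlap. Prc1, which bundles microtubules in the middle of the spindle, had 11.6, 10.4 and 9.77 CPM in Sham, 27.2, 40.9 and 22.2 in Injury and 4.37, 6.48 and 4.72 in Sacral NC. Tpx2, a spindle assembly factor, had 6.63, 4.73 and 5.32 CPM in Sham, 14.8, 20.6 and 9.90 in Injury and 2.28, 4.01 and 2.20 in Sacral NC. Mki67, the proliferation marker Ki-67, had 6.34, 11.3 and 8.85 CPM in Sham, 21.4, 38.7 and 23.3 in Injury and 3.17, 5.89 and 6.29 in Sacral NC. Prc1 and Tpx2 keep the same order of 3 separate groups, while in Mki67 the highest Sacral NC value came to 0.992 of the lowest Sham value.

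Ccnb1, the cyclin that drives entry into mitosis, had 4.60, 5.75 and 3.84 CPM in Sham, 9.04, 11.3 and 7.44 in Injury and 2.22, 3.04 and 3.21 in Sacral NC. Nuf2, a kinetochore protein that holds microtubules, had 1.80, 2.58 and 2.91 CPM in Sham, 6.47, 7.96 and 5.20 in Injury and 1.14, 1.30 and 1.76 in Sacral NC. Mastl, the kinase that keeps a mitotic phosphatase in check, had 0.814, 1.26 and 1.24 CPM in Sham, 2.76, 4.01 and 2.63 in Injury and 0.180, 0.712 and 0.440 in Sacral NC. In each of these, Injury stood above Sham and Sham above Sacral NC without overlap. Kif18a, a motor that shortens microtubules, had 3.55, 2.88 and 3.03 CPM in Sham, 3.70, 3.71 and 2.68 in Injury and 1.98, 2.20 and 1.26 in Sacral NC, and Stil, needed to build centrioles, had 3.72, 2.70 and 4.08 CPM in Sham, 3.39, 3.89 and 3.06 in Injury and 1.50, 2.27 and 1.76 in Sacral NC. In Kif18a and Stil, Sham and Injury overlapped and Sacral NC alone was apart.

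The remaining mitosis genes, Trip13 apart, had the same order of means. Depdc1, a regulator of mitotic progression, had 1.28, 1.44 and 0.866 CPM in Sham, 3.83, 7.84 and 3.50 in Injury and 0.2995, 0.648 and 0.755 in Sacral NC. Ckap2l, a spindle-associated protein, had 1.80, 3.18 and 2.72 CPM in Sham, 4.46, 6.31 and 3.72 in Injury and 1.26, 0.842 and 0.881 in Sacral NC. Ncaph, a condensin subunit, had Sacral NC values of 1.44, 1.81 and 1.01 CPM and Kntc1, a checkpoint protein of the kinetochore, 1.44, 2.66 and 2.58. Kif20b, a motor of cell division, had 0.659, 1.62 and 1.07 CPM there, Shcbp1, a midbody protein, 1.08, 1.42 and 1.51, and Birc5, survivin, 1.08, 1.23 and 0.377. Trip13, which takes apart the checkpoint complex, was nearly level in Sham and Injury, with means of 3.59 ± 0.849 CPM in Sham, 3.55 ± 0.181 CPM in Injury and 2.04 ± 0.326 CPM in Sacral NC (SD, n = 3).

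Outside the 82, 14 further genes of a cell cycle list were tested, and edgeR called 12 lower in Sacral NC than in Injury and 0 higher, beside 3.7% of all genes tested called lower. Against Sham, 0 were called by edgeR or DESeq2, 12 of 14 were below 0, 2 had an unadjusted p under 0.05, and their median log2 change was -0.48. The count of 12 became 7 without Sacral NC 1, where those called lower over all genes went from 574 of 15509 to 180 of 15728. Summed over these 14 genes, Sacral NC libraries held 142 to 145 CPM, Sham 155 to 172 and Injury 226 to 293, so the 3 groups did not overlap. Top2a, the topoisomerase that untangles chromosomes, had 4.89, 10.7 and 6.06 CPM in Sham, 26.9, 44.5 and 25.2 in Injury and 2.94, 5.12 and 4.28 in Sacral NC, and Mcm5, part of the replication helicase, had 10.0, 8.45 and 10.8 CPM in Sham, 11.6, 12.9 and 11.6 in Injury and 5.93, 6.48 and 5.91 in Sacral NC. In Top2a Sacral NC 2 lay above Sham 1, while in Mcm5 all Sacral NC values lay below all Sham values.

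DNA replication and repair contributed Cdc45, Mcm10 and Mms22l. Cdc45, a part of the replication helicase, had 3.78, 2.52 and 3.53 CPM in Sham, 2.83, 3.24 and 3.45 in Injury and 1.38, 2.20 and 1.70 in Sacral NC. A second gene carries the Cdc45 symbol, and it was counted at 53.6, 72.8 and 64.0 CPM in Sham, 34.5, 33.3 and 35.7 in Injury and 92.2, 61.1 and 94.2 in Sacral NC, which is not lower after transplantation. The label of the lower gene is therefore uncertain. Mcm10, which loads replication proteins, had 2.62, 2.16 and 2.17 CPM in Sham, 4.14, 4.13 and 3.88 in Injury and 0.899, 1.94 and 1.32 in Sacral NC, and Mms22l, a factor for stalled forks, had 3.72, 2.58 and 4.58 CPM in Sham, 3.83, 3.36 and 3.83 in Injury and 1.74, 2.33 and 2.20 in Sacral NC. All 3 were lowest in Sacral NC 1.

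**Figure D4:**
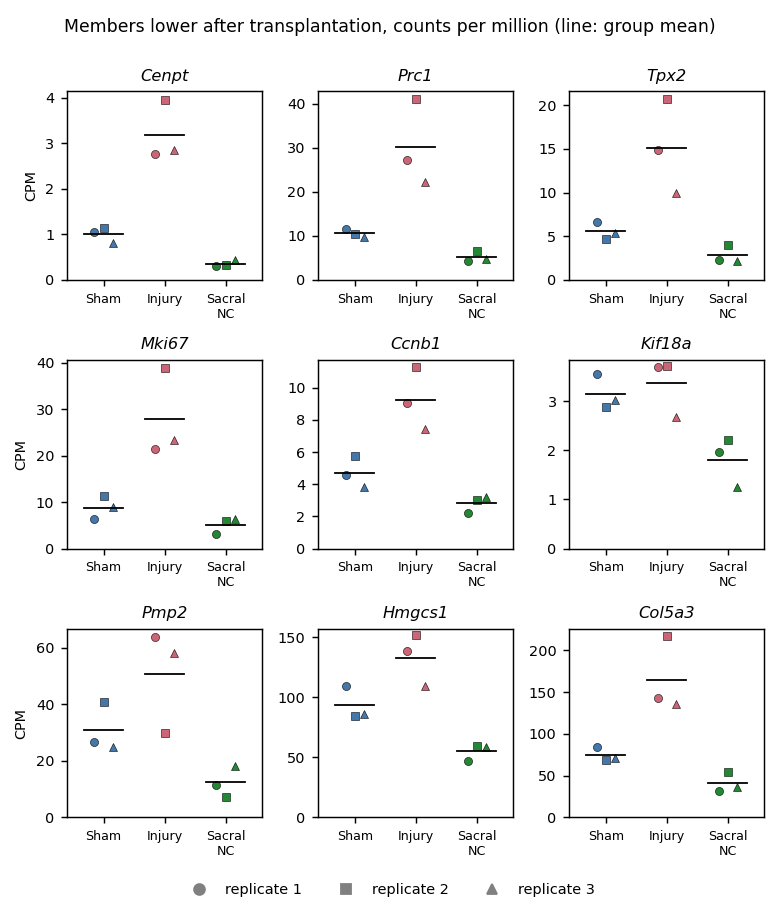
CPM of 9 genes lower after transplantation, 1 panel per gene with its own linear axis from 0; symbols are libraries (circle, square and triangle for replicates 1, 2 and 3) and lines are group means. The mitosis genes Cenpt, Prc1, Tpx2, Mki67 and Ccnb1, and Col5a3, are highest in Injury, while Kif18a overlaps between Sham and Injury, and Sacral NC lies lowest in every panel.

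Pmp2, a fatty acid carrier of myelin, was among the lower genes, with 26.8, 40.7 and 24.9 CPM in Sham, 63.9, 29.8 and 58.0 in Injury and 11.6, 7.25 and 18.2 in Sacral NC. All Sacral NC values lay below all others, and Injury 2 lay within the Sham range. Of 13 Schwann cell and neural crest markers outside the 82 that were tested, edgeR called 0 in either comparison with Sacral NC, with log2 changes below 0 in 9 against Injury and 10 against Sham. Of the 13, 2 had an unadjusted p under 0.05 in each comparison, and DESeq2 called 1 lower against Injury. S100b, a Schwann cell marker, had 313, 246 and 221 CPM in Sham, 355, 209 and 289 in Injury and 239, 409 and 326 in Sacral NC, and Sox10, the transcription factor of neural crest and glia, had 27.5, 14.9 and 15.7 CPM in Sham, 23.5, 10.8 and 15.4 in Injury and 11.7, 18.8 and 12.4 in Sacral NC. In both, chosen after their values were seen, Sacral NC overlapped Sham. Summed over the markers outside the 82, however, Sacral NC libraries held 1298 to 1693 CPM, wholly below Sham at 1835 to 2368, while Injury ran from 1240.0 to 2549 and overlapped both.

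Hmgcs1, an early enzyme of cholesterol synthesis and a target of the sterol-sensing factor SREBP2, had 109.7, 84.5 and 86.4 CPM in Sham, 139, 152 and 109 in Injury and 46.7, 59.3 and 58.7 in Sacral NC. Sham and Injury overlapped only through Injury 3 and Sham 1, and the Sacral NC libraries lay below both.

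Outside the 82, 16 further genes of sterol and fatty acid synthesis were tested, and all 16 were below 0 in Sacral NC against both Injury and Sham, as were 14 without Sacral NC 2. By edgeR 6 of the 16 were called lower against Injury, beside 3.7% of all genes tested, with Cyp51, Sqle, Idi1, Dhcr7 and Fdft1 among them, and 0 against Sham, where DESeq2 also called 0 and 7 had an unadjusted p under 0.05. The count of 6 became 3 without Sacral NC 3. It became 4 without Sacral NC 1, without any 1 Injury or without any 1 Sham library, and 8 without Sacral NC 2, and 0 when the 4 libraries rich in skeletal muscle reads were left out. The median log2 change was -0.56 against Injury and -0.37 against Sham. Cyp51, a demethylase of the path, had 47.1, 48.2 and 43.0 CPM in Sham, 60.7, 80.4 and 54.4 in Injury and 33.1, 34.0 and 33.4 in Sacral NC, with no overlap between Sacral NC and the other groups. Idi1, which isomerises the path's building block, had 27.2, 24.4 and 25.0 CPM in Sham, 33.0, 40.0 and 26.1 in Injury and 13.2, 16.4 and 18.1 in Sacral NC, with the same separation. Summed over these 16 genes, Sham held 1469.6 to 1644 CPM, Injury 1215 to 1447 and Sacral NC 1178 to 1322, so on raw CPM Injury and Sacral NC overlapped.

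Matrix genes gave Col5a3, Ccn4, Bcan, Adamts20 and Mmp17. Col5a3, a chain of type V collagen, had 84.0, 68.7 and 71.1 CPM in Sham, 143, 216 and 135 in Injury and 31.4, 54.4 and 36.7 in Sacral NC. Ccn4, a secreted target of Wnt signalling, had 15.1, 14.1 and 12.7 CPM in Sham, 40.2, 43.0 and 41.6 in Injury and 4.43, 7.64 and 11.95 in Sacral NC. In both, the 3 groups were separate with Injury highest. Bcan, the proteoglycan brevican of nervous tissue, had 3.43, 4.97 and 4.21 CPM in Sham, 4.27, 3.83 and 3.66 in Injury and 2.22, 1.30 and 1.57 in Sacral NC. Adamts20, a versican-cleaving protease, had 8.43, 5.21 and 6.001 CPM in Sham, 9.04, 11.8 and 6.67 in Injury and 2.097, 4.66 and 3.21 in Sacral NC, and Mmp17, a membrane-bound metalloproteinase, 14.0, 9.95 and 8.599 CPM in Sham, 15.9, 11.8 and 11.1 in Injury and 5.09, 6.67 and 7.42 in Sacral NC. Bcan, Adamts20 and Mmp17 overlapped between Sham and Injury, unlike Col5a3 and Ccn4.

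The last 7 lower genes were Vwa7, Crym, Tmprss5, Dok5, Fsbp, Slc1a7 and Nnat, with Sacral NC means 0.507 to 0.588 times the nearer group mean. Nnat, a small membrane protein of the developing nervous system, had 7.45, 7.97 and 8.04 CPM in Sham, 10.4, 11.6 and 7.99 in Injury and 3.23, 6.28 and 4.28 in Sacral NC. Crym, which binds thyroid hormone, had 9.89, 13.4 and 9.47 CPM in Sham, 13.2, 9.73 and 7.88 in Injury and 7.19, 5.83 and 3.84 in Sacral NC. Slc1a7, a glutamate transporter, was the 1 lower gene that reached 3 CPM in Sham but not in Injury, with means of 3.17 ± 0.393 CPM in Sham, 2.71 ± 0.409 CPM in Injury and 1.58 ± 0.622 CPM in Sacral NC (SD, n = 3). Nnat and Vwa7 overlap other, more counted genes on the opposite strand, Blcap and Sapcd1. The same holds for Cd72 with Tesk1, Depp1 with Rassf4, Kif18a with Mettl15 and Tmem150b with Brsk1, and the labels do not say whether the counting used strand.

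The rule did not ask for a difference between Injury and Sham, although its floor can favour one, and the same libraries served to choose the genes. It also used raw CPM, which the collagen reads lower in Injury, while the test used TMM scaling. A gene at most 0.6 times the raw Injury mean was thereby more likely to lie above Sham in Injury on TMM scaling. The counts below are therefore partly set by how the genes were chosen. Of the 82 genes, edgeR's quasi-likelihood test with Benjamini-Hochberg adjustment over 15509 genes called 16. Of the 37 genes lower after transplantation, 14 were called higher in Injury and 0 lower, beside 3.09% of all genes called higher. Of the 45 genes higher after transplantation, 2 were called lower in Injury, RGD1562420 and RT1-S3, and 0 higher, beside 1.34% of all genes called lower.

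The floor of the rule bears on that count. Among the 37 lower genes, 13 reached 3 CPM in Injury alone and could enter more easily if Injury exceeded Sham, and 6 of them were called. The floor was met in both Sham and Injury by 23, of which 8 were called higher in Injury: Prc1, Tpx2, Kntc1, Col5a3, Ccn4, Mki67, Hmgcs1 and Ccnb1. All 23 had a log2 change above 0. On TMM scaling all 37 lower genes were above 0, and on raw CPM 31 of 37 Injury means exceeded Sham.

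Prc1 had a log2 change from Sham to Injury of 1.79 ± 0.25 (SE; edgeR, adjusted p = 0.0127). Ccn4 had 1.84 ± 0.29 (SE; edgeR, adjusted p = 0.0169). For Mki67 the change was 1.94 ± 0.35 (SE; edgeR, adjusted p = 0.024), and for Hmgcs1 it was 0.78 ± 0.17 (SE; edgeR, adjusted p = 0.038). The Injury values of Prc1, Ccn4 and Mki67 were all above the Sham values, while Hmgcs1 in Injury 3 lay just under Sham 1. Kif18a, Stil, Trip13, Cdc45 and Mms22l had log2 changes of 0.36 ± 0.26, 0.25 ± 0.25, 0.26 ± 0.24, 0.23 ± 0.26 and 0.29 ± 0.25 and were not called. The interval from 2 SE below to 2 SE above includes 0 in each of these 5.

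RT1-S3 had a log2 change of -1.28 ± 0.24 (SE; edgeR, adjusted p = 0.0247). RGD1562420 had an adjusted p of 0.00645 by edgeR, and its fitted change depends on the prior count because Injury held 2 reads. None of the 11 interferon-induced genes was called between Injury and Sham, with 8 below 0, 2 at an unadjusted p under 0.05 and a median log2 change of -0.20, beside -0.039 over all genes. DESeq2 called 0 of the 11 as well. None of the 5 Ly49 or 6 myeloid, dendritic and lymphoid genes was called by edgeR or DESeq2, none had an unadjusted p under 0.05, and their standard errors reached 1.44 on the log2 scale.

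The count over all genes fell without any 1 Sham or Injury library, and the count of 16 fell with it. Over all genes, the 687 called became 263 without Sham 1, 69 without Sham 2 and 21 without Sham 3. They were 259 without Injury 1, 166 without Injury 2 and 113 without Injury 3. The count of 16 became 2 without Sham 2, and 1 of these was Rps10, called higher in Injury and not among the 16. It was 4 without Sham 1, 1 without Sham 3, 6 without Injury 1, and 3 without Injury 2 as without Injury 3. Leaving out the 4 libraries rich in skeletal muscle reads made it 0, with a single library left in Injury. DESeq2 called 22, beside 1581 of 21094 genes in all, while edgeR called 16, beside 687 of 15509. Prc1 was called in 13 and RGD1562420 in 15 of 16 settings of the fit, the main one included, and Mastl in 6.

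**Figure D5:**
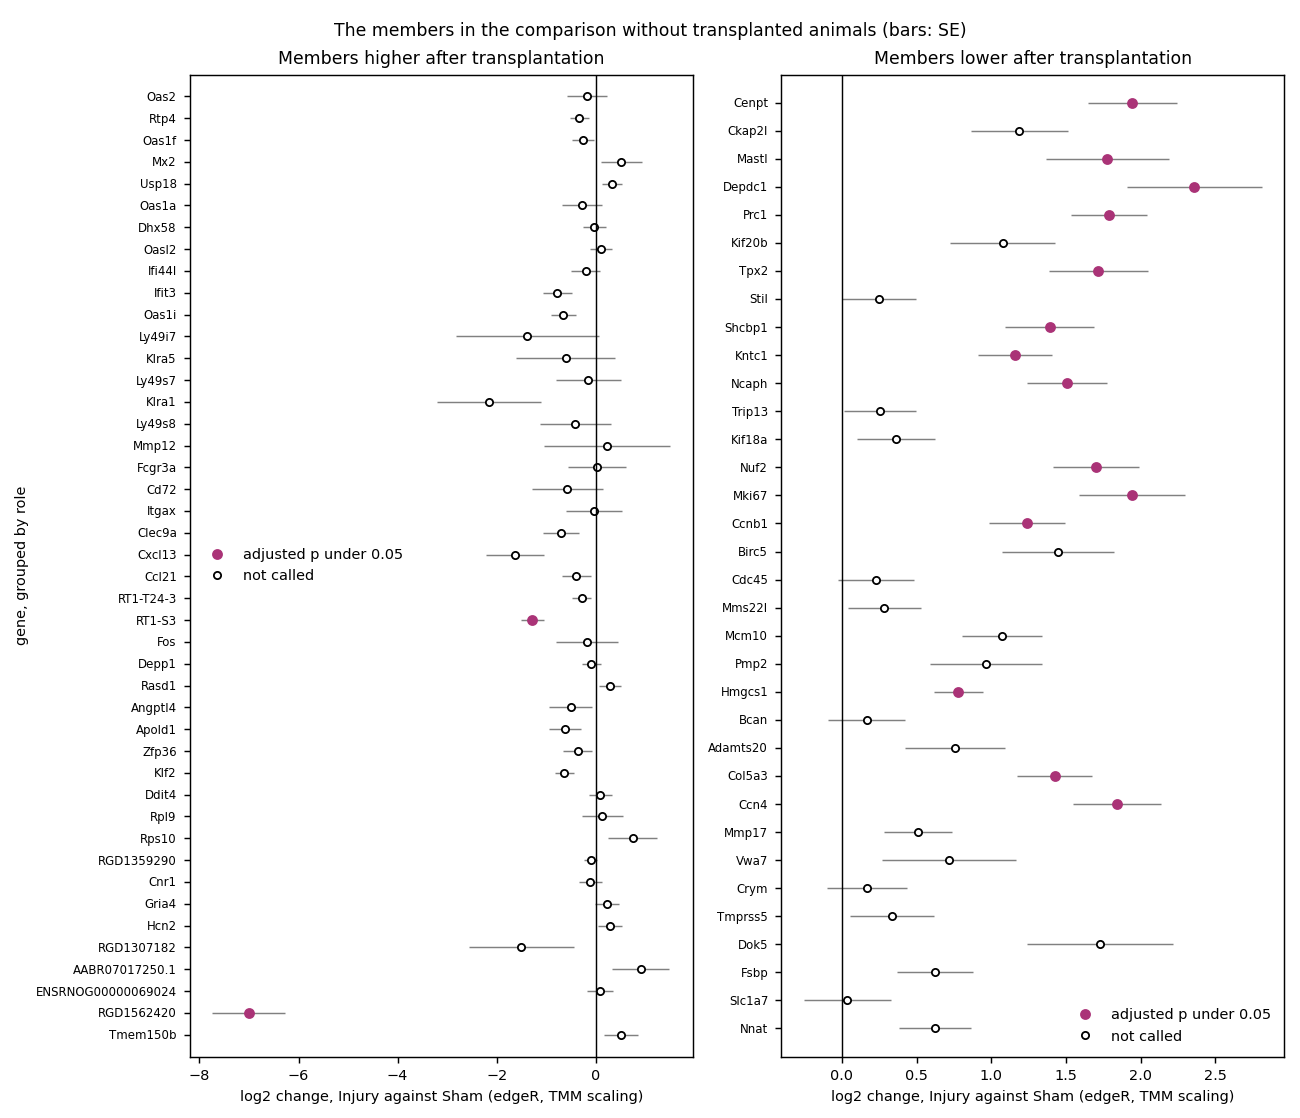
Log2 change from Sham to Injury (edgeR, TMM scaling) for the genes reported here, grouped by role, with bars of 1 SE; filled points have an adjusted p under 0.05. The genes lower after transplantation (right) all lie above 0 and 14 are called, while the genes higher after transplantation (left) lie on both sides of 0, with RT1-S3 and RGD1562420 called.

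The 2 comparisons with Sacral NC chose the genes, so their calls are given as a description from which nothing is read. Against Injury, 31 of the 45 higher and 30 of the 37 lower genes were called, beside 3.26% and 3.7% of all genes. Against Sham, edgeR called 0 of 15509 genes in either direction (0%), among them 0 of the 82, with 1232 genes at an unadjusted p under 0.05. DESeq2 called 61 genes against Sham, 26 of them among the 82. By edgeR, 13 of the 82 were called against Sham without Sacral NC 2, where 106 of 15784 genes were called in all. Without Sham 2, 1 of the 82 was called, beside 1 of 15691 genes. Why the calls differ between these settings was not tested.

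Some of the genes are neighbours. Oas1i, Oas1a, Oas1f and Oas2 lie between 35624592 and 35829371 on chromosome 12, where they are 4 of 10 protein-coding genes, the others being Oas1d, Oas1e, Oas1h, Oas1k, Oas3 and a second gene under the symbol Oas1f. Oas1k, next to them, had 4.89, 2.16 and 3.59 CPM in Sham, 0.628, 0.472 and 0.766 in Injury and 2.94, 4.60 and 2.01 in Sacral NC, so it was low in Injury but not higher after transplantation than in Sham. RT1-S3 and RT1-T24-3 lie between 2670709 and 2776154 on chromosome 20, as 2 of 4 protein-coding genes. The Oas1 genes, like the RT1 genes, are related copies, so how reads were split among them is uncertain. Which rat build the positions belong to is not stated in the tables or the labels.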

How the data were processed

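RNA from penile tissue of rats was counted per gene in 9 libraries, 3 per group, each placed in its group and numbered by its title. The authors deposited 3 tables, 1 for each pair of groups, that hold raw read counts per gene, per the file headers. Values of a library in 2 tables were compared, and 0 differed, so the counts were joined into 1 matrix of 21124 genes. Per the submitters' processing notes, which list names without roles, HISAT2 2.0.5 (an aligner) and the mouse build GRCm38.p6 belong to the processing, although the gene identifiers are those of rat. Which counter, strand setting and rat annotation were used: not given in the sources used here. Fold changes and p-values of the authors were not used.

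CPM (counts scaled by the library total) was computed on the raw totals and the rule was applied to it. Roles were assigned by hand after the genes were known. Counts were tested with edgeR 4.0.16 (R 4.3.3) by the robust quasi-likelihood F-test, with TMM scaling. The default filter for low counts left 15509 genes, among them all 82 described. A single fit with 1 mean for each group covered the 9 libraries. Genes were called at a Benjamini-Hochberg adjusted p under 0.05 over all genes tested, and SE is the log2 change divided by the root of F. The fit was tested on simulated counts. The genes and the 28 lists of markers and pathways were chosen with earlier results of these data known. Named genes include Usp18 and Rtp4, the 12 genes with the largest and the 12 with the smallest ratio to the nearer group, members on shared lists, the 6 most abundant other interferon genes and the genes at the fold limits. Other members and list genes were picked after their values were seen. Some genes are counted in the totals but not reported here. Of the 82 genes, 14 had under 10 reads in some library, so their ratios carry large counting error.

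Alternatives were RLE size factors, no filter, DESeq2 1.42.0, a replicate block, a fit of the compared pair of groups alone, and the removal of each library in turn. For the rule they were other scalings, floors and folds. Totals without collagen and fits without the 4 libraries where skeletal muscle genes held over 0.1% of reads were added after seeing the data. A search of promoters for motifs was planned and not run, since sequences of the rat were not used here.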

Additional observations from a re-analysis of the deposited data

How the results depend on the processing

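The number of genes the rule finds depends on its limits. With no floor there were 102 higher and 109 lower genes, with a floor of 10 CPM 34 and 12, and with folds of 2 or 0.5 28 and 9. Without the 4 libraries rich in skeletal muscle reads there were 307 higher and 229 lower, 67 of the 82 among them. Leaving out 1 library gave 39 to 360 higher and 36 to 307 lower genes. Totals without collagen reads gave 41 and 51, and RLE-scaled CPM 50 and 33. Leaving out 1 library gave 1 to 19 called among the 82 for Injury against Sham, 29 to 72 for Sacral NC against Injury and 0 to 13 for Sacral NC against Sham. Over all genes, leaving out 1 library gave 21 to 1329, 285 to 3574 and 0 to 106 called in these comparisons, against 687, 1080 and 0. It gave 8 to 58 genes of the interferon lists for Sacral NC against Injury and 0 to 4 against Sham. Leaving out the libraries rich in skeletal muscle reads left a single library in Injury, so counts called in that fit are not compared here. With only the 2 groups compared, 24 of the 82 were called against Injury and 7 genes of the interferon lists, beside 239 of 15048 genes. DESeq2 called 26 of the 82 and 9 of the interferon lists against Sham, beside 61 of 21094 genes. The cause of these differences was not tested, and some settings hold fewer libraries. The replicate block left 8 of the 82 called for Injury against Sham, 39 for Sacral NC against Injury and 17 interferon list genes. Over all 15509 genes the replicate block left 267 called for Injury against Sham and 471 for Sacral NC against Injury. Same-numbered libraries correlated between -0.552 and 0.621 in their deviations from the group means, and not every library correlated best with its own number, so the numbers were not taken to pair the samples. No called value among those recomputed changed sign. Uncalled signs did change: for Injury against Sham, 36 of the 37 lower genes were above 0 without Sham 3, without Injury 3 or without the libraries rich in skeletal muscle reads, and over all settings 11 to 18 of the 45 higher genes were, against 14. For single genes and single lists, 1512 values kept their side or size, 104 changes of called genes were no longer called, and 125 ratios or list counts moved by more than the spread or by over 1.5 times. Depth limits the genes with few reads, and 3 libraries a group limit every call.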

Other observations

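The genes that the deposited tables do not class as protein-coding were left out of the rule, and 3 of them met the rest of it. Cebpa, which the tables label a long non-coding RNA although its symbol is that of a transcription factor of fat and myeloid cells, had 10.9, 12.04 and 12.2 CPM in Sham, 12.2, 8.14 and 11.05 in Injury and 17.0, 13.5 and 28.6 in Sacral NC, so it followed the order of libraries seen in the myeloid genes. Apln, whose symbol is that of a peptide of growing blood vessels, had 15.7, 12.2 and 8.35 CPM in Sham, 6.41, 11.8 and 6.62 in Injury and 3.41, 4.73 and 6.35 in Sacral NC. ENSRNOG00000067254 was also lower, with means of 2.64 CPM in Sham, 5.99 in Injury and 1.57 in Sacral NC.

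Endothelial markers show another order of the groups. Their summed level was 2686 to 2825 CPM in Sham, 1294 to 1446 in Injury and 2265 to 3055 in Sacral NC, and none of the 20 was among the 82 genes. By edgeR, 11 of the 20 were lower in Injury than in Sham, beside 1.34% of all genes tested, and 10 were higher in Sacral NC than in Injury, beside 3.26%. These comparisons share the Injury libraries. The 11 became 0 without Sham 2 or Sham 3, 1 without Injury 3, 2 without Injury 1, 4 without Injury 2 and 6 without Sham 1. The 10 became 3 without Injury 1 or Injury 3, 4 without Injury 2, Sham 3 or Sacral NC 1, 5 without Sham 1 and 6 without Sacral NC 3. Without the 4 libraries rich in skeletal muscle reads they were 0 and 1. Between Sacral NC and Sham edgeR called 0 of the 20, with 3 at an unadjusted p under 0.05, and DESeq2 called 2 lower.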
